A study of Mus musculus with 12 samples.

Results

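Pomc and 7 transcription factors of the pituitary lineages, Tbx19, Pax7, Pitx1, Neurod1, Nr4a1, Nr4a2 and Gata2, were followed across 6 groups of AtT-20 cells. These 8 genes were taken by name from the 16385 genes of the expression table, and all 8 were among the 12578 genes tested. AtT-20 is a mouse pituitary tumor line that serves as a model of corticotropes, and the same AtT-20/D16v-F2 cells carried the introduced factor in every group. The factors were delivered with the retroviral vector pLNCX2 under a CMV promoter, the cells were selected with geneticin, and resistant colonies were pooled. The groups were Pax7 Q-GL-, which has neither the glutamine (Q) nor the glycine-leucine (GL) insertion in the paired domain, Pax7 Q-GL+ with GL only, Pax7 Q+GL+ with both, Pax3, Pax7 465, a C-terminal deletion mutant that ends at residue 465, and Pax7 NoTag. The paper's supplement titles the blots of its C-terminal deletion mutants as Pax7 Q+GL- mutants, so Pax7 465 is taken here as Q+GL-. The paper describes Pax3 as Q+GL- too. The methods place Flag tags at both ends of the constructs, and the labels give NoTag the genotype Pax7 without naming its isoform. Each group had 2 libraries, 12 in all, and no library of cells without an introduced factor was analysed here. The methods describe biological replicates and do not state whether each had its own infection, so p-values measure only the spread between these samples. RNA of whole cultures was sequenced, so fewer cells with a transcript and less transcript per cell cannot be told apart.

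The pituitary makes its hormones in separate cell types that share the homeodomain factor Pitx1. Corticotropes of the anterior lobe and melanotropes of the intermediate lobe both transcribe Pomc, the precursor of ACTH and of the melanotropic peptides, and both depend on the T-box factor Tbx19 (Tpit) to do so. Pax7 marks melanotropes, where it acts as a pioneer factor, whereas Neurod1 marks corticotropes, Nr4a1 (Nur77) and Nr4a2 (Nurr1) carry hormonal signals to Pomc, and Gata2 belongs to the gonadotrope and thyrotrope lineages.

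The table gives Ensembl genes on GRCm38. Pomc (ENSMUSG00000020660) lies at chr12:3954951-3960618, Tbx19 at chr1:165137855-165160773, Pax7 at chr4:139737062-139833528 and Pitx1 at chr13:55825051-55836192. Neurod1 lies at chr2:79452521-79456751, Nr4a1 at chr15:101254269-101274795, Nr4a2 at chr2:57106830-57124003 and Gata2 at chr6:88193891-88207032. The deposited values are FPKM, fragments per kilobase of gene scaled to the depth of the library, which allow levels to be set side by side between genes. Low values of single-exon genes fell on whole multiples of a step, within 0.05, for 97.6% to 98.9% of the values tested, and taking that step as 1 fragment gives an implied depth of 20.03 to 23.02 M fragments per library. The NoTag libraries stood apart: their FPKM summed to 627305 to 666609, against 413794 to 483161 in the other 10, and the 7SK RNA gene Rn7sk took 13.7% to 14.8% of that sum, against 6.93% to 9.27%. A further 733 genes were above 0 in both NoTag libraries and listed at 0 in the other 10. NoTag is therefore described last and apart, and the tests that carry the comparison of isoforms cover the 5 other groups. The NoTag libraries stayed in the fit from which the spread in these tests was taken. As for the labelled cell type, Pomc, Tbx19, Pcsk1, Nr3c1 and Neurod1 of 7 corticotrope markers were detected at 11.5 FPKM or more in every library, the CRH receptor gene Crhr1 lay between 0.130 and 0.484 FPKM, and Avpr1b was not analysed here. Of the somatotrope, lactotrope and thyrotrope markers only Ghrhr could be read, at up to 0.291 FPKM, and of the gonadotrope markers Lhb was listed at 0 in all 12 libraries and Nr5a1 reached 0.146 FPKM.

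The sequences just before the Pomc and Tbx19 starts are shown because Pomc is the gene on which most of the other factors act and Tbx19 encodes its lineage-restricted activator. They are RefSeq promoters on GRCm38.p6, the 250 bases before the start, 5′ to 3′ on the strand of the gene, with capitals on the matches to the motifs listed after them. The Pomc stretch is chr12:3954695-3954944 on the plus strand, and the Tbx19 stretch is chr1:165160774-165161023 on the minus strand.
Pomc: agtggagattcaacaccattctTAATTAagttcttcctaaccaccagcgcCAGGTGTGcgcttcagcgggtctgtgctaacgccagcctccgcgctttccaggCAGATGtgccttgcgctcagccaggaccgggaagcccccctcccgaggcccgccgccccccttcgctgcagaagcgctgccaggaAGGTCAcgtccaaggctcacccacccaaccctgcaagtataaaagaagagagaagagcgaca
Tbx19: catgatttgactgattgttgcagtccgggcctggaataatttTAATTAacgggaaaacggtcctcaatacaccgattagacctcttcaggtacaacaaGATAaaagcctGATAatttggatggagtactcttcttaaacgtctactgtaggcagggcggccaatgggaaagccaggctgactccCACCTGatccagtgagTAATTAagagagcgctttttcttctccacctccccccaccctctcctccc
On both strands, 6 motifs were searched: the E-box CANNTG, which NeuroD1 and its partners bind, the T-box core AGGTGTG, the nuclear receptor motif AGGTCA, the homeodomain motif TAATTA, the Pitx motif TAATCC and GATA. In Pomc, TAATTA lies at -228 to -223 from the start, the E-box CAGGTG at -200 to -195 overlaps the T-box core AGGTGTG at -199 to -193, another E-box, CAGATG, lies at -147 to -142, and AGGTCA lies at -62 to -57. In Tbx19, TAATTA occurs at -208 to -203 and at -50 to -45, GATA occurs at -152 to -149 and at -141 to -138, and the E-box CACCTG lies at -66 to -61. Among 32851 promoter windows of this length, 66.2% hold the E-box, 53.6% GATA, 14.02% AGGTCA, 6.25% TAATCC, 5.105% AGGTGTG and 4.84% TAATTA. RefSeq promoters were matched for 7 of the 8 genes, 8 windows in all with 2 for Gata2. The windows of Pax7, Nr4a1, Nr4a2 and Gata2 hold none of the 6 motifs, and the Neurod1 window holds 1 E-box. A match is a description of the letters and not a binding site. Sequence beyond these 250 bases was not searched, so a motif absent here may lie farther upstream.

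**Figure D1:**
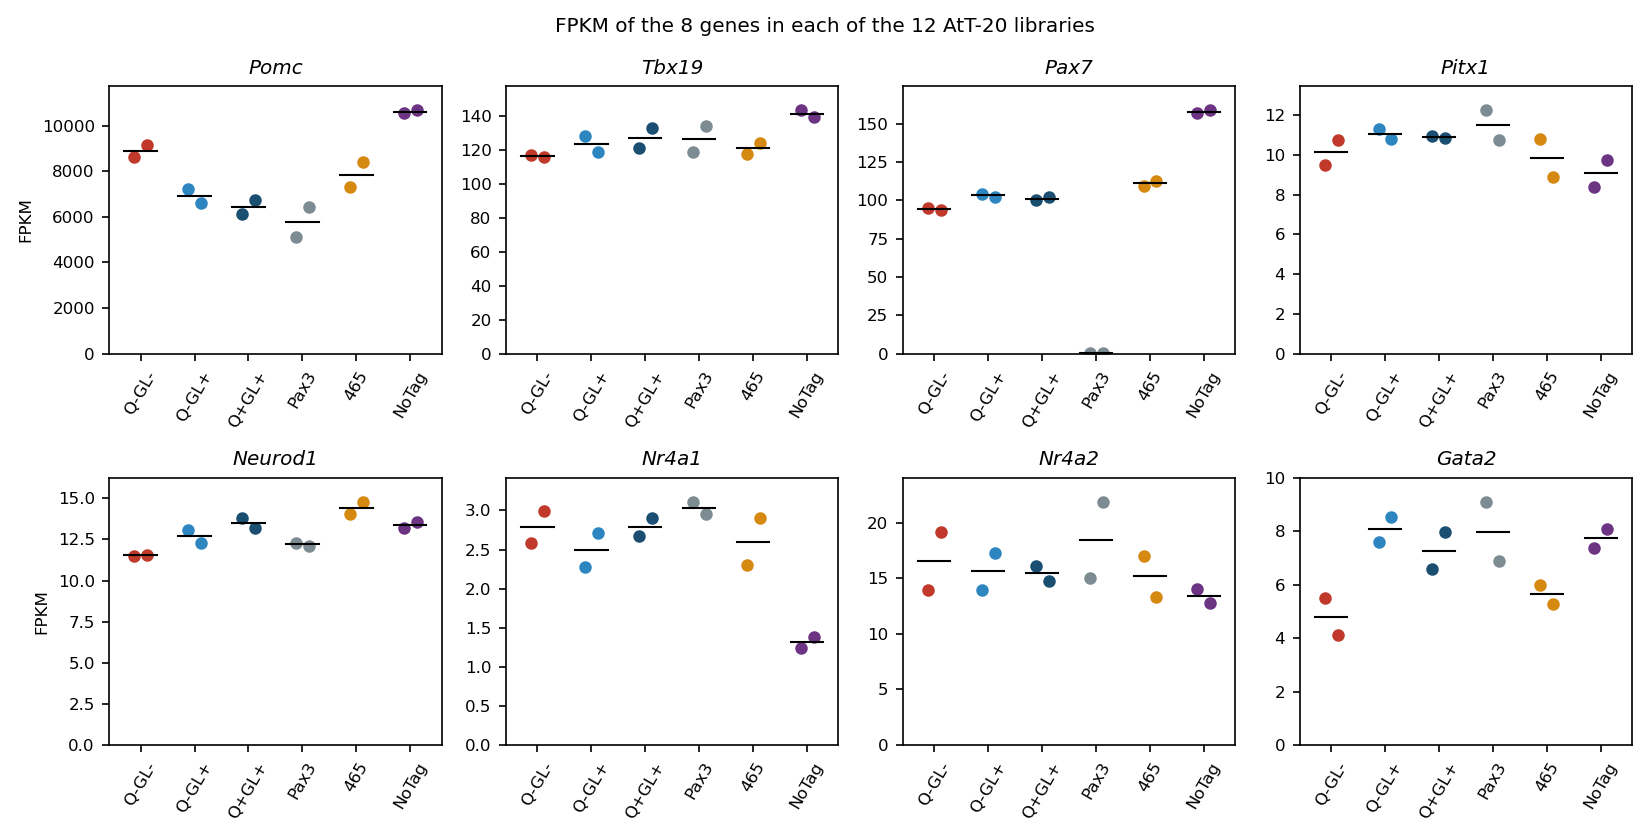
FPKM of each of the 8 genes (vertical axes, each from 0) in the 2 libraries of each of the 6 groups (points), with the group mean as a line. Pomc runs from 5112 to 10680 FPKM and is highest in NoTag, Pax7 is near 0 in Pax3 cells, Nr4a1 is lowest in NoTag, and Gata2 is lowest in Pax7 Q-GL-.

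Pax7 itself reads the introduced factor. It stood at 95.2 and 93.9 FPKM in Pax7 Q-GL-, 104 and 102 in Pax7 Q-GL+, 99.9 and 102 in Pax7 Q+GL+ and 109 and 113 in Pax7 465. In Pax3 cells it was 0.159 and 0.161 FPKM, or about 18 implied fragments per library, so endogenous Pax7 transcript was near the limit of what was counted. The 4 Pax7 groups exceeded Pax3 by 6.36 to 6.59 on the log2(FPKM + 1) scale, each with SE 0.06 and a limma adjusted p of at most 8.09e-15, which follows from how the cells were made. Among these 4 groups none of the 6 differences in Pax7 passed the test. The Pax7 465 value was the highest and Pax7 Q-GL- the lowest, with a log2 difference of 0.23 ± 0.06 (SE, n = 2 and 2, limma adjusted p = 0.191, 95% interval 0.09 to 0.37). With FPKM of each library scaled to the same sum, that difference was 0.31 with an adjusted p of 0.0293. FPKM divides by the annotated gene and not by the introduced sequence, so the level of the shorter Pax7 465 is not a number of molecules.

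Pomc ranked 2 to 5 among all genes by FPKM in each of the 10 libraries other than NoTag, where it made up 1.24% to 1.97% of the summed FPKM. It was 8622 and 9158 FPKM in Pax7 Q-GL-, 7303 and 8395 in Pax7 465, 7226 and 6593 in Pax7 Q-GL+, 6146 and 6756 in Pax7 Q+GL+, and 5112 and 6422 in Pax3. Both Pax7 Q-GL- libraries lay above all 8 other libraries of these groups, and the first Pax3 library lay below all others. From the highest to the lowest group mean the ratio was 1.54. Pomc was higher in Pax7 Q-GL- than in Pax3 by 0.63 ± 0.13 on the log2 scale (SE, n = 2 and 2, limma adjusted p = 0.0145), in a pair where 4.33% of all genes tested passed. The call was lost without either Pax7 Q-GL- library (adjusted p 0.139 without the second), without the first Pax3 library (0.47, adjusted p = 0.0607), without the robust option (adjusted p = 0.0798) and with only these groups fitted (adjusted p = 0.144).

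In the pair of cell populations whose constructs differ by the GL insertion, the difference Pax7 Q-GL- minus Pax7 Q-GL+ was 0.36 ± 0.13 for Pomc (limma adjusted p = 0.142, 95% interval 0.09 to 0.64), with no overlap of the libraries. Pax7 Q-GL- exceeded Pax7 Q+GL+ by 0.46 ± 0.13 (limma adjusted p = 0.0989) and Pax7 465 exceeded Pax3 by 0.45 ± 0.13 (limma adjusted p = 0.144), again without overlap. These values did not pass the test. Libraries did not overlap for 6 of the 8 genes in the first pair, 6 in the second and 5 in the third, so this is not particular to Pomc. The share over all genes was not counted. Scaling each library to the same summed FPKM, an alternative chosen after seeing the data, gave 0.33, 0.39 and 0.47 with limma adjusted p of 0.00749, 0.00512 and 0.00242, and 5 of the 10 pairs passed for Pomc. Median centring gave 0.34 (adjusted p = 0.0648), 0.44 (adjusted p = 0.037) and 0.43 (adjusted p = 0.0616). Quantile normalization gave 0.62 (limma adjusted p = 0.000244), 0.086 (limma adjusted p = 0.482) and 0.62 (limma adjusted p = 0.00059). With only the groups compared in the fit, the first pair passed at an adjusted p of 0.0129 and the second at 0.0187, and the first and second also passed without either Pax3 library and the third without the second one. Whether these pairs passed for Pomc thus depended on the scaling and on which libraries entered the fit. The call of Pax7 Q-GL- minus Pax3 held under all of these scalings. It was 0.62 after quantile normalization (limma adjusted p = 0.000303), 0.58 after median centring (0.00633) and 0.57 with equal summed FPKM (0.000327). That call depended on the robust option and on which libraries entered the fit. Neighbours in the order of levels (Pax7 Q-GL-, Pax7 465, Pax7 Q-GL+, Pax7 Q+GL+, Pax3) did not pass the test as deposited, with limma adjusted p between 0.677 and 0.801. After quantile normalization, where a gene of such high rank takes the mean value of its rank, 3 of these 4 passed: 0.62 for Pax7 465 minus Pax7 Q-GL+ (limma adjusted p = 0.00118), 0.54 for Pax7 Q+GL+ minus Pax7 Q-GL+ (limma adjusted p = 0.00209), which is the opposite of their order as deposited, and -0.54 for Pax3 minus Pax7 Q+GL+ (limma adjusted p = 0.00463). Over the 5 groups the moderated F test gave Pomc an adjusted p of 0.0561, and 0.113 with the NoTag libraries left out of the fit. This F test passed after quantile normalization (adjusted p = 0.000164), median centring (0.0217), equal summed FPKM (0.00124) and with a filter of 5 FPKM (0.0474). It did not pass without the robust option (0.222), without trend (0.051), with no filter beyond a value above 0 (0.082) or with a pseudocount of 0.1 (0.0537).

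Markers of the 2 cell types that make and process the Pomc product differed in how closely their group order matched that of Pomc. Of 5 melanotrope markers, 4 were tested and 4 passed the F test, which 4.78% of all genes tested passed: Pax7, which is the introduced gene and differs from Pax3 cells by construction, Pcsk2, which cuts the Pomc product into melanotropic peptides, Oacyl and Megf11. Like the other lists, this one was chosen with earlier results of these data known, so its count is a description. Pcsk2 was 35.8 and 36.6 FPKM in Pax7 Q-GL-, 20.8 and 22.0 in Pax7 465, 17.2 and 18.9 in Pax3, 16.2 and 15.4 in Pax7 Q-GL+ and 11.7 and 12.5 in Pax7 Q+GL+. Megf11 was highest in Pax7 465, with a group mean of 105 FPKM, followed by 92.1 in Pax7 Q-GL+, 86.3 in Pax7 Q-GL-, 75.3 in Pax3 and 59.7 in Pax7 Q+GL+. Of the 3 genes, Oacyl had its group means in the order of those of Pomc, at 10.9 FPKM in Pax7 Q-GL-, 7.39 in Pax7 465, 4.22 in Pax7 Q-GL+, 2.41 in Pax7 Q+GL+ and 1.89 in Pax3, whereas Pcsk2 and Megf11 did not. Their summed level, most of it Megf11, was 127 to 139 FPKM in Pax7 Q-GL-, 127 to 141 in Pax7 465, 110 to 114 in Pax7 Q-GL+, 90.3 to 100.2 in Pax3 and 73.4 to 75.0 in Pax7 Q+GL+.

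Of 7 corticotrope markers, 5 were tested and 1 passed the F test, Pcsk1, the convertase that yields ACTH (adjusted p = 0.00718). Pcsk1 was 385 and 391 FPKM in Pax7 Q-GL-, 318 and 348 in Pax7 465, 288 and 310 in Pax7 Q+GL+, 291 and 270 in Pax7 Q-GL+, and 225 and 259 in Pax3, so that the 2 GL+ isoforms stood in the reverse of their order for Pomc. Nr3c1, the glucocorticoid receptor, did not pass (adjusted p = 0.106) and had its lowest group mean, 29.3 FPKM, in Pax7 Q-GL-, against 29.7 in Pax7 465 and 34.7 to 35.8 in the other groups. Pomc, Tbx19 and Neurod1 are the other tested members of the list. The part of these genes in the Pomc levels was not tested.

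**Figure D2:**
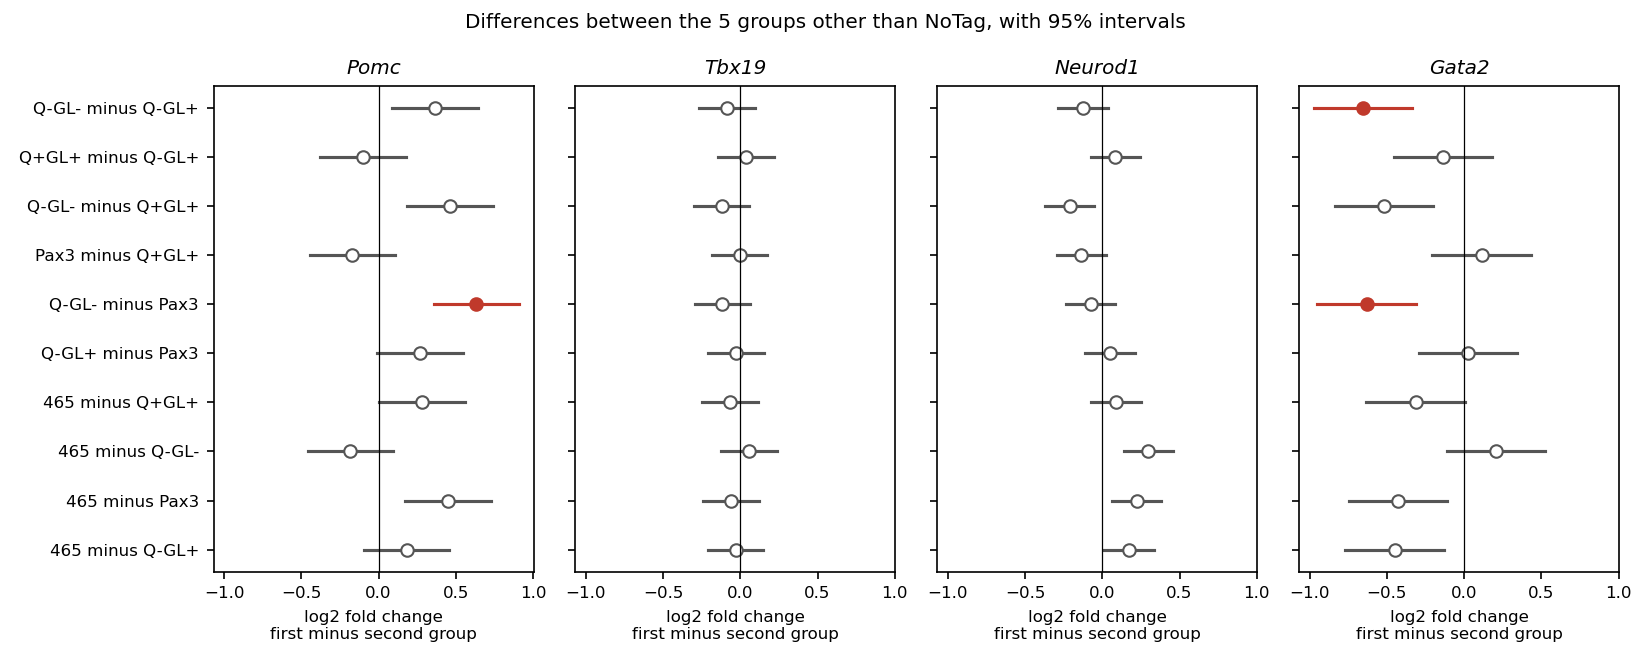
Log2 fold change on the log2(FPKM + 1) scale (horizontal axis) with its 95% interval for Pomc, Tbx19, Neurod1 and Gata2 in the 10 pairs of groups without NoTag (vertical axis), filled red where the limma adjusted p is under 0.05. Pomc lies above 0 and Gata2 below 0 wherever Pax7 Q-GL- is set against a GL+ isoform or Pax3, and the Tbx19 intervals all include 0.

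Tbx19, the T-box factor without which Pomc is hardly transcribed, kept a narrow range. It was 117 and 116 FPKM in Pax7 Q-GL-, 129 and 119 in Pax7 Q-GL+, 121 and 133 in Pax7 Q+GL+, 119 and 134 in Pax3, and 117 and 124 in Pax7 465. Pax7 Q-GL- was the lowest group for Tbx19 and the highest for Pomc among these 5. Both of its libraries (116.9 and 115.9 FPKM) lay below all other libraries of the 5 groups, the lowest of which was 117.5 in Pax7 465. The ratio of the highest to the lowest group mean was 1.09, and none of the 10 pairs passed, with limma adjusted p of 0.508 or more and 95% intervals that stayed between -0.30 and 0.23 on the log2 scale. The largest difference, Pax7 Q-GL- minus Pax7 Q+GL+, was -0.12 ± 0.08, and it passed only where the libraries were scaled to equal sums (-0.19, adjusted p = 0.0334) or quantile normalized. Pax7 Q-GL- minus Pax3 also passed with equal sums (-0.18, adjusted p = 0.0309) and after quantile normalization (-0.20, adjusted p = 0.0117). After quantile normalization Pax7 Q-GL- minus Pax7 Q-GL+ passed too (-0.15, adjusted p = 0.0433), as did the F test (adjusted p = 0.0383). No pair passed after median centring. The implied depth was 5845 to 7607 fragments per library, so Tbx19 was not limited by counting.

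Pitx1, the homeodomain factor of all pituitary lineages, was at 9.49 and 10.8 FPKM in Pax7 Q-GL-, 11.3 and 10.8 in Pax7 Q-GL+, 10.97 and 10.87 in Pax7 Q+GL+, 12.2 and 10.8 in Pax3, and 10.8 and 8.87 in Pax7 465. The groups overlapped in part and the means spanned a ratio of 1.17. The pair farthest apart, Pax7 465 minus Pax3, gave -0.21 ± 0.11 (limma adjusted p = 0.532, 95% interval -0.45 to 0.03). None of its 10 pairs passed, with limma adjusted p of 0.458 or more.

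Neurod1, the basic helix-loop-helix factor of corticotropes, had the tightest replicates of the endogenous genes here. It stood at 11.5 and 11.5 FPKM in Pax7 Q-GL-, 12.3 and 12.1 in Pax3, 13.1 and 12.3 in Pax7 Q-GL+, 13.8 and 13.2 in Pax7 Q+GL+, and 14.1 and 14.8 in Pax7 465. Pax7 Q-GL- lay below, and Pax7 465 above, all other libraries of the 5 groups. The difference between them was 0.30 ± 0.07 (limma adjusted p = 0.139). The F test gave an adjusted p of 0.132, and 0.195 with the NoTag libraries left out of the fit. The residual SD of Neurod1 was lower than that of all but 1.5% of 1000 genes of like level, which moderation draws toward the common spread, so its SE of 0.07 exceeds the spread of its own replicates (residual SD 0.04). Over the same 5 groups, the order of Neurod1 means (Pax7 465, Pax7 Q+GL+, Pax7 Q-GL+, Pax3, Pax7 Q-GL-) is not that of Pomc.

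Nr4a2 was the noisiest of the 8. It read 13.99 and 19.2 FPKM in Pax7 Q-GL-, 13.97 and 17.3 in Pax7 Q-GL+, 16.1 and 14.8 in Pax7 Q+GL+, 14.99 and 21.9 in Pax3, and 17.0 and 13.3 in Pax7 465. The libraries of each group overlapped those of every other, and the 2 Pax3 libraries alone differed by 46.0%. It was read from about 800 to 1492 implied fragments per library, depending on the transcript used for its length. Its residual SD was above that of 98.1% of 1000 genes of like level. The pair farthest apart, Pax7 465 minus Pax3, was -0.25 ± 0.19 (limma adjusted p = 0.703) and came to 0.0080 without the second Pax3 library.

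Nr4a1, the orphan receptor induced by CRH, was low at 2.58 and 2.99 FPKM in Pax7 Q-GL-, 2.28 and 2.71 in Pax7 Q-GL+, 2.67 and 2.90 in Pax7 Q+GL+, 3.11 and 2.95 in Pax3, and 2.30 and 2.90 in Pax7 465. All 10 libraries lay within that range of 2.28 to 3.11, at 113 to 159 implied fragments. Pax7 Q-GL+ minus Pax3 was the largest difference at -0.21 ± 0.12 (limma adjusted p = 0.625, 95% interval -0.47 to 0.06). The other member of the family, Nr4a3, stayed under the filter at 0.311 to 0.656 FPKM.

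**Figure D3:**
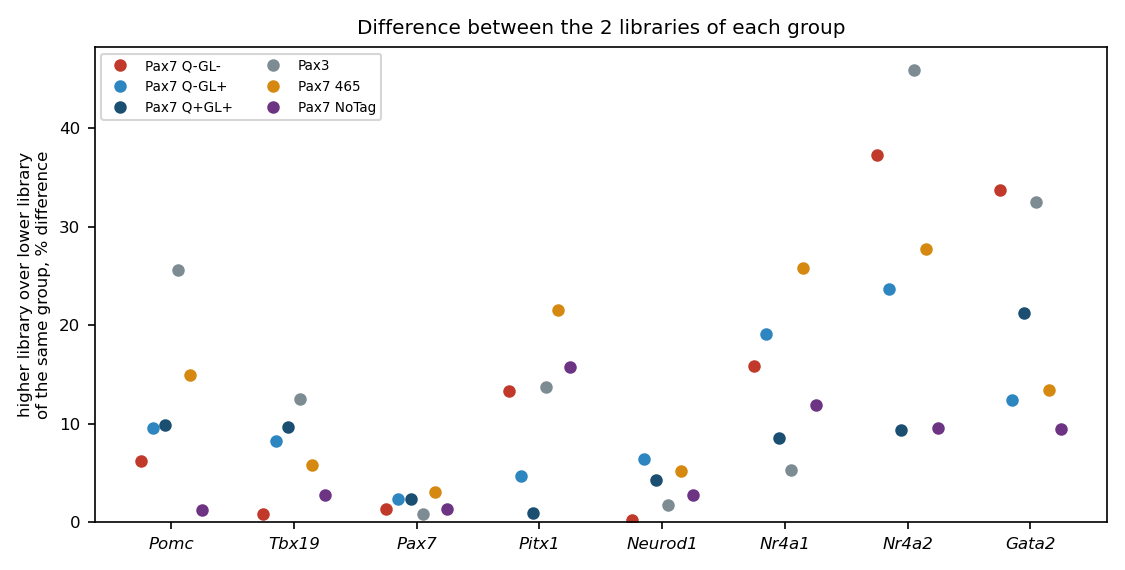
Percent by which the higher library of each group exceeded the lower (vertical axis, from 0) for the 8 genes (horizontal axis), 1 point per group. The 2 libraries differed by up to 46.0% for Nr4a2 and up to 33.7% for Gata2, and by at most 6.41% for Neurod1 and 3.12% for Pax7.

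Among the groups other than NoTag, Gata2, the zinc finger factor of gonadotropes and thyrotropes, was lowest in the 2 where Pomc was highest. It was 5.49 and 4.10 FPKM in Pax7 Q-GL-, 5.999 and 5.29 in Pax7 465, 6.58 and 7.98 in Pax7 Q+GL+, 9.11 and 6.87 in Pax3, and 7.60 and 8.55 in Pax7 Q-GL+. Both Pax7 Q-GL- libraries and both Pax7 465 libraries lay below the 6 libraries of the GL+ isoforms and Pax3. Gata2 was lower in Pax7 Q-GL- than in Pax7 Q-GL+ by a log2 difference of -0.66 ± 0.15 (SE, n = 2 and 2, limma adjusted p = 0.0272), in a pair where 4.17% of all genes passed. Against Pax3 the difference was -0.63 ± 0.15 (limma adjusted p = 0.0311). Both calls were lost without the second Pax7 Q-GL- library, where the differences fell to -0.48 (adjusted p = 0.211) and -0.46 (adjusted p = 0.242), with no filter (adjusted p 0.0547 and 0.0608) and with equal summed FPKM (adjusted p 0.0547 and 0.0575). The first was also lost without either Pax7 Q-GL+ library, at -0.73 (adjusted p = 0.0813) without the first and -0.58 (adjusted p = 0.212) without the second, and the second without the first Pax3 library, at -0.45 (adjusted p = 0.226).

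Against Pax7 Q+GL+, Gata2 in Pax7 Q-GL- differed by -0.52 ± 0.15 (limma adjusted p = 0.105), and Pax7 465 differed from Pax7 Q-GL+ by -0.45 ± 0.15 (limma adjusted p = 0.254), both without overlap and short of the threshold. Other genes of the 8 also did not overlap in these pairs. Here too the share over all genes was not counted, so this is a description only. Pax7 465 and Pax7 Q-GL- overlapped, with a difference of 0.21 ± 0.15 (95% interval -0.11 to 0.52). The F test over 5 groups gave Gata2 an adjusted p of 0.0516, and 0.0785 with the NoTag libraries left out of the fit. The implied depth of 246 to 585 fragments was enough to count these levels, and the 2 Pax7 Q-GL- libraries differed by 33.7%. Of the gonadotrope genes, Nr5a1 was at 0.146 FPKM or less in every library, and Lhb is given only as listed at 0.

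Counted over the 8 genes, the F test over the 5 groups called only Pax7, the introduced gene, against 4.78% of all genes. The median span of the 5 group means over all genes was 0.23 on the log2 scale, against 0.63 for Pomc, 0.66 for Gata2, 0.30 for Neurod1 and 0.12 for Tbx19. Of 80 tests of a gene in a pair without NoTag, 7 passed: Pax7 against Pax3 in 4, Pomc in 1 and Gata2 in 2. The Pomc call and 1 Gata2 call fell in Pax7 Q-GL- with Pax3, where 4.33% of all genes passed. The other Gata2 call fell in Pax7 Q-GL- with Pax7 Q-GL+, where 4.17% passed. Over the 10 pairs the share of all genes ran from 0.262% to 4.33%. Apart from Pax7, no gene of the 8 was called in the pairs of Pax7 Q+GL+ with Pax7 Q-GL+ (0.962% of all genes), Pax7 Q-GL- with Pax7 Q+GL+ (2.15%), Pax3 with Pax7 Q+GL+ (0.262%), Pax7 Q-GL+ with Pax3 (0.708%), or Pax7 465 with Pax7 Q+GL+ (1.33%), Pax7 Q-GL- (0.445%), Pax3 (1.16%) or Pax7 Q-GL+ (0.795%).

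The wider lists gave shares of 5.88% and 6.90% past the F test, near the 4.78% of all genes. Of 38 other pituitary transcription factors, 26 were in the table and 17 were tested. Only Hes1, a repressor downstream of Notch, passed the F test (limma adjusted p = 0.0218), and the median span of the 17 was 0.23, as over all genes. Hes1 was 11.95 and 13.5 FPKM in Pax7 Q-GL+ but 7.67 and 7.21 in Pax7 Q-GL- and 5.28 and 6.35 in Pax7 Q+GL+, so it separated the 2 GL+ isoforms by a log2 difference of -1.01 ± 0.16 for Pax7 Q+GL+ minus Pax7 Q-GL+ (limma adjusted p = 0.0109). Next by F-test p were Eya1, a transcriptional cofactor (14.5 to 20.3 FPKM), Insm1, a zinc finger factor of endocrine cells (44.8 to 56.5 FPKM), and Creb3l2, an activator of secretory capacity (8.91 to 15.2 FPKM), none of which passed. Sox2, a progenitor factor, was at 2.74 to 4.96 FPKM, and its partner Sox9 reached 0.463 FPKM.

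Among 31 regulators of Pomc transcription, 29 were tested and 2 passed the F test, with a median span of 0.23. Stat3, which relays LIF signals to Pomc, was 67.0 and 68.8 FPKM in Pax7 Q-GL-, 57.6 and 65.7 in Pax7 465, 50.02 and 45.3 in Pax7 Q-GL+, 49.3 and 53.4 in Pax7 Q+GL+, and 39.6 and 45.1 in Pax3. It had the group order of Pomc except for the 2 GL+ isoforms, and Pax7 Q-GL- exceeded Pax3 by 0.67 ± 0.09 (limma adjusted p = 0.0011). Jun, a subunit of AP-1, was instead highest in Pax7 Q-GL+ at 26.1 and 29.8 FPKM and lowest in Pax3 at 14.98 and 17.7 (0.74 ± 0.09, limma adjusted p = 0.00562). Id3, an inhibitor of basic helix-loop-helix factors (104 to 140 FPKM), and Nr3c1, the glucocorticoid receptor that represses Pomc (27.1 to 36.6 FPKM), came next and did not pass. Junb was listed at 0 in all 10 libraries other than NoTag and at 14.3 and 13.7 FPKM in NoTag, so it is given only as listed. It entered the 29 through NoTag alone and could not pass the F test. Without NoTag, 12343 genes passed the filter, against 12578 with it, so the share of all genes has the same limit.

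By likeness over the 10 libraries other than NoTag, the genes nearest to Pomc on the log2 scale were Trappc6a (Pearson r = 0.963, 30.5 to 64.2 FPKM), Ttyh1 (r = 0.962, 11.5 to 62.3 FPKM) and Gsdma (r = 0.961, 31.8 to 59.5 FPKM), among 1225 genes whose group means spanned at least 0.5. Nearest to Gata2 were Grin3a (r = 0.902), Gm15927 (r = 0.878) and Sh3gl3 (r = 0.860). Libraries of 1 group share a condition, and the highest of many correlations over 10 points are high by selection, so these are descriptions. For the genes that hardly moved the best values were Card6 with Pitx1 (r = 0.900), Gm44364 with Tbx19 (r = 0.898), Gm14057 with Neurod1 (r = 0.869), Gm24157 with Nr4a2 (r = 0.819) and Plekha4 with Nr4a1 (r = 0.789), while Klhdc1 was nearest to Pax7 (r = 0.959).

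In NoTag, Pomc was 10547 and 10680 FPKM, Pax7 157 and 159, Tbx19 143 and 140, Neurod1 13.2 and 13.5, Gata2 7.39 and 8.09, Pitx1 8.40 and 9.73, Nr4a2 13.99 and 12.8, and Nr4a1 1.24 and 1.39. Both libraries lay above all others for Pomc, Pax7 and Tbx19 and below all others for Nr4a1. The median gene was itself higher in NoTag, by 0.15 to 0.20 on the log2 scale, and 39.8% of all genes passed against Pax7 Q-GL-, 48.6% against Pax7 Q-GL+, 46.0% against Pax7 Q+GL+, 47.5% against Pax3 and 45.8% against Pax7 465. Of the 40 tests of the 8 genes in these pairs 20 passed, a share near that of all genes. Between 79.7% and 83.3% of all calls were higher in NoTag as deposited, 49.3% to 53.5% after median centring, 46.4% to 48.3% after quantile normalization and 12.5% to 16.2% with equal summed FPKM, so most directions in NoTag depend on the scaling.

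Nr4a1, like Nr4a2 and Pitx1, kept its direction under all scalings. It was lower in NoTag than in each of the 5 other groups by log2(FPKM + 1) differences of -0.59 to -0.80 (SE 0.12, limma adjusted p at most 0.00182). Relative to the median gene these were -0.784 to -0.998, at 64 to 72 implied fragments. At such low FPKM the added 1 shrinks the differences, and the ratio of mean FPKM was 0.43 to 0.53. A filter of 5 FPKM removes the gene. All 5 calls stood under every other alternative run, with equal summed FPKM at -0.88 to -1.11. Nr4a3, under the filter, was also lower in both NoTag libraries, at 0.164 and 0.206 FPKM. Nr4a2 overlapped 3 of the 5 groups. With equal summed FPKM all 5 pairs of Nr4a2 (-0.67 to -0.91) and of Pitx1 (-0.56 to -0.79) passed as lower in NoTag. After median centring, and after quantile normalization, 3 pairs of Pitx1 and 1 of Nr4a2 passed. As deposited, only Pitx1 against Pax3 passed among the pairs of these genes.

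Pax7 was higher in NoTag than in the 4 other Pax7 groups by 0.50 to 0.73 (SE 0.06, limma adjusted p at most 6.35e-05), or 0.31 to 0.58 relative to the median gene. With equal summed FPKM these were 0.26 against Pax7 Q-GL- and 0.11, 0.098 and -0.046 against Pax7 Q-GL+, Pax7 Q+GL+ and Pax7 465, and only the first passed. Pomc exceeded Pax7 Q-GL+ by 0.62, Pax7 Q+GL+ by 0.72, Pax3 by 0.89 and Pax7 465 by 0.44 (SE 0.13, limma adjusted p at most 0.0141), and Pax7 Q-GL- by 0.26 (limma adjusted p = 0.129). Relative to the median gene, these differences were 0.43, 0.54, 0.69, 0.25 and 0.10. With equal summed FPKM Pomc was lower in NoTag than in Pax7 Q-GL- (-0.21, limma adjusted p = 0.00888) and differed from Pax7 465 by -0.11, and of the other pairs those with Pax7 Q+GL+ (0.18) and Pax3 (0.36) still passed. As a share of summed FPKM, Pomc was 1.58% to 1.70% in NoTag, inside the range of 1.24% to 1.97% of the other libraries.

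The other calls in NoTag were lost, or passed in the opposite direction, under some of the alternatives. Tbx19 passed against Pax7 Q-GL- (0.28, limma adjusted p = 0.0184) and Pax7 465 (0.23, limma adjusted p = 0.0426), which is 0.13 and 0.04 relative to the median gene. Both calls were lost when any library of the groups compared was left out (adjusted p 0.0656 to 0.107 against Pax7 Q-GL- and 0.0596 to 0.199 against Pax7 465), after median centring (adjusted p 0.145 and 0.649) and after quantile normalization. With equal summed FPKM Tbx19 was instead called lower in NoTag in all 5 pairs. There it was -0.19 (limma adjusted p = 0.00283) against Pax7 Q-GL- and -0.32 (limma adjusted p = 7.63e-05) against Pax7 465. Neurod1 passed against Pax7 Q-GL- (0.20, limma adjusted p = 0.0495) and lost the call when any 1 of the 12 libraries was left out. With equal summed FPKM Neurod1 too was called lower in NoTag in all 5 pairs, at -0.24 (limma adjusted p = 0.0411) against Pax7 Q-GL-. Gata2 passed against Pax7 Q-GL- (0.60, limma adjusted p = 0.00652) and Pax7 465 (0.40, limma adjusted p = 0.0429), and with equal summed FPKM the former was 0.20 (limma adjusted p = 0.387) and the latter negative. The former was also lost after median centring (0.44, adjusted p = 0.0535), after quantile normalization (0.44, adjusted p = 0.0608) and without the second Pax7 Q-GL- library (0.43, adjusted p = 0.0724), and the latter after both scalings and without any library of the groups compared. Pitx1 was lower than in Pax3 (-0.31, limma adjusted p = 0.0322) and stayed lower under all scalings, but the call was lost without the first Pax3 library (-0.23, adjusted p = 0.202) and without the first NoTag library (-0.22, adjusted p = 0.223). The summed level of Pcsk2, Oacyl and Megf11 was 196 to 205 FPKM in NoTag as deposited. There the group means of Pcsk2 (65.3 FPKM) and Megf11 (128 FPKM) were above those of every other group, while that of Oacyl (6.78 FPKM) was below 10.9 in Pax7 Q-GL- and 7.39 in Pax7 465. Their part in these differences was not tested.

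**Figure D4:**
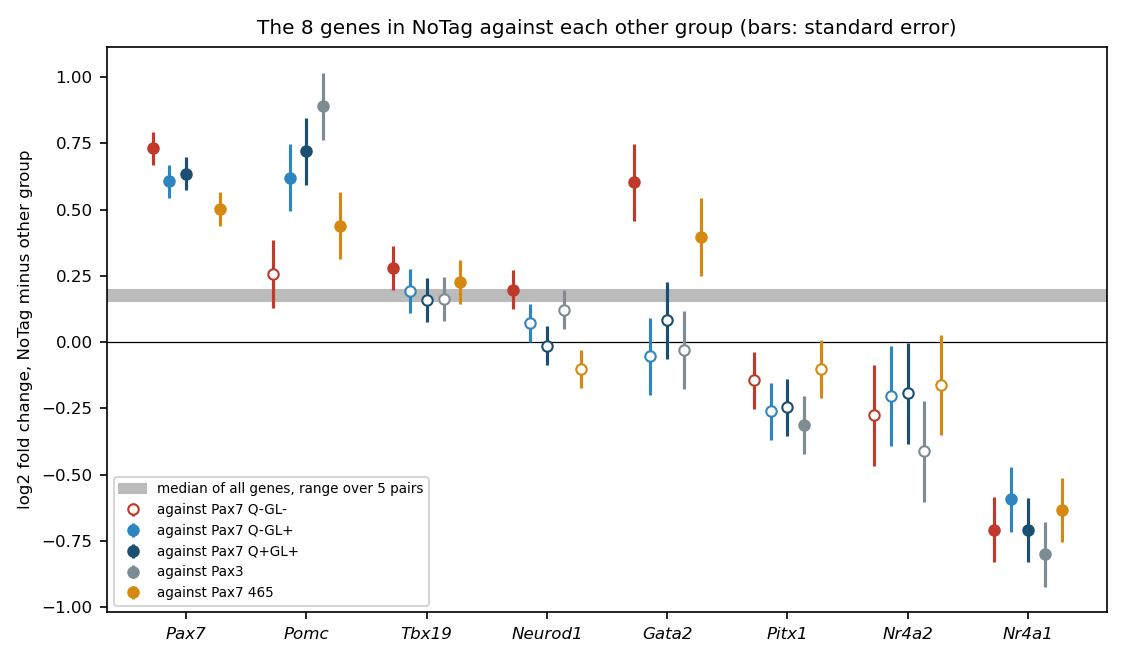
Log2 fold change of each of the 8 genes in NoTag minus each other group (vertical axis, bars are standard errors, filled where the limma adjusted p is under 0.05), with the range of the median of all genes as a gray band at 0.15 to 0.20. Nr4a1 lies far below the band against all 5 groups, Tbx19 lies at or near it, and Pax7 against Pax3 (7.10) is off the scale and not drawn.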

How the data were processed

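RNA-seq of 12 libraries was read from 1 table of FPKM that the authors deposited. They trimmed strand-specific paired-end reads with Trimmomatic, mapped them to Ensembl GRCm38.77 (mm10) with TopHat2 and quantified genes with HOMER. For these RNA-seq steps no tool versions are given in the sources used here. The table has 4 further sample columns that match no sample and were not used. Values were taken as log2(FPKM + 1), and genes that reached 1 FPKM in 2 or more libraries entered limma-trend, robust option, in 1 fit of all 12 libraries with 1 coefficient per group. P-values were adjusted by Benjamini-Hochberg over the 12578 genes within a comparison, with 0.05 as threshold. A count model was not run because FPKM are not counts. The script was tested on simulated data. Genes were named from the 8 members, the markers, and up to 4 per list with the smallest F-test p. The 3 genes most like each member were also candidates, and not every marker or like gene is printed. Rn7sk, Junb and Nr4a3 were named after their values were seen. The members and lists were chosen with earlier results of these data known. Replicate numbers did not pair the samples (15 pairs of groups, correlation of deviations -0.158 to 0.173, 2 over 0.1). R 4.3.3, limma 3.58.1, statmod 1.5.0, Python, pandas, numpy and matplotlib were used.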

Additional observations from a re-analysis of the deposited data

How the results depend on the processing

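Of the 8 genes, 1 passed the F test over 5 groups, against 4 after quantile normalization, 2 after median centring, 3 with a filter of 5 FPKM, 2 with equal summed FPKM, and 1 to 3 when 1 library was left out. Of the 80 tests without NoTag 7 passed, against 18 after quantile normalization and 12 with equal summed FPKM, and 4 to 10 when 1 library was left out, 4 without the second Pax7 Q-GL- library. Of the 40 tests with NoTag 20 passed, against 32 with equal summed FPKM, and 14 to 22 with 1 library left out. Among other pituitary factors 1 passed, 0 with no filter beyond a value above 0, and 0 to 1 with 1 library left out. Among regulators of Pomc 2 passed, 5 after quantile normalization, 5 after median centring, 4 with equal summed FPKM and 2 to 3 with 1 library left out. Equal summed FPKM was added after the data were seen, and the cause of these changes was not tested.

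Quantile normalization gave Pomc -0.54 against Pax7 Q+GL+ and -0.62 against Pax7 465 and Pax7 Q-GL- in NoTag, because Pomc holds rank 2 to 5 in the libraries other than NoTag and takes the mean value of its rank. It gave Tbx19 -0.047 for NoTag minus Pax7 465. Equal summed FPKM reversed NoTag minus Pax7 465 for Pomc (-0.11), Tbx19 (-0.32), Pax7 (-0.046) and Gata2 (-0.082), and NoTag minus Pax7 Q-GL- for Pomc (-0.21), Tbx19 (-0.19) and Neurod1 (-0.24). Nr4a2 in Pax7 465 minus Pax3 ranged from -0.51 to 0.0080 with 1 library left out, the latter without the second Pax3 library.

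With the replicate number as a block, 2 of the 8 genes passed the F test, Pomc beside Pax7 (adjusted p = 0.0498), 7 of the 80 and 18 of the 40 pair tests passed. The numbers do not pair the samples. With 2 libraries per group, leaving out 1 assumes that the remaining library varies like the other groups, and depth limits chiefly Nr4a1.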
